A study of Mus musculus with 11 samples.

Results

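HNF4A, a nuclear receptor that binds DNA at enhancers and promoters of enterocyte genes, was mapped by chromatin immunoprecipitation and sequencing (ChIP-seq) in villus epithelium of the mouse jejunum, with and without the homeobox gene Cdx2. The peaks described here are those of the Cdx2 knockout list that no wild-type HNF4A peak overlapped by 1 bp or more. There were 2865 of them among 9676 peaks of that list (29.6%), and they are called knockout-only peaks. The other 6811 peaks of the list overlapped a wild-type peak and are called shared. The wild-type list held 22376 peaks, of which 15636 had no knockout peak over them and are called wild-type-only. Knockout-only peaks were thus chosen by whether a peak was called in either HNF4A library. Their HNF4A scores and their distance to wild-type HNF4A peaks describe that choice and support nothing further. CDX2 and H3K4me2 were measured in other libraries. Both went with distance to wild-type HNF4A peaks, as given below, so they are not independent of that choice.

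CDX2 is a homeodomain transcription factor that specifies and maintains intestinal identity, and it binds many enhancers of the villus epithelium, often near HNF4A. H3K4me2, dimethylation of histone H3 at lysine 4, is carried by nucleosomes at promoters and at enhancers. At an occupied enhancer the marked nucleosomes typically flank the bound factor and leave the centre depleted.

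The groups were wild type, Cdx2 knockout, Hnf4a knockout and 2 double knockouts, all in villus cells, and mice with a strain label were of mixed 129xC57BL6 background. For HNF4A there was 1 library of wild type and 1 of Cdx2 knockout. CDX2 was mapped in 2 wild-type libraries and 1 Hnf4a knockout library, and H3K4me2 in 1 library of each of the 5 genotypes. Neither ages nor the promoter that drove deletion are named in the labels. The labels of both double knockouts contradict themselves about the second deleted gene. These libraries are therefore called by their titles, Cdx2-Cdx1 and Cdx2-Hnf4a, and nothing is drawn from the second gene. All of their labels name Cdx2 as deleted. No read numbers per library are stated, so depth is unknown. A peak missing from a list was not called there, and binding below the caller's threshold may exist. With 1 library per group no test between genotypes was possible. The intervals below are 95% intervals that cover counting error only, and nucleosomes of one site are not independent of each other. In bulk villi, a mark in fewer cells and a weaker mark per cell cannot be told apart.

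The CDX2 lists held 12121 and 7441 peaks in the wild-type libraries and 5768 in Hnf4a knockout. H3K4me2 nucleosomes were counted at a nucleosome score of 52 or more, because the Hnf4a knockout list reached down to 1.7 and the other lists did not go below 50.1. At that score the lists held 245431 nucleosomes in wild type, 256794 in Cdx2 knockout, 250282 in Hnf4a knockout, 281957 in the library titled Cdx2-Cdx1 and 275915 in the one titled Cdx2-Hnf4a. A site is called marked where at least 1 of these nucleosomes was centred within 1 kb of the peak centre.

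Knockout-only peaks were mostly weak peaks of the knockout list. Their median score was 61.8 (quartiles 56.0 and 75.8, highest 250.0), against 98.9 for shared peaks. The lists' lowest score was 50. Their median width was 212 bp, against 288 bp for shared peaks. The highest-scoring knockout-only peak ranked 794th in the list, and there were 3 among the 1000 strongest knockout peaks, 45 among the 2000 strongest and 593 among the 5000 strongest. By score, they made up 56.4% of knockout peaks from 50 to 60, 41.1% from 60 to 80, 20.9% from 80 to 120 and 4.09% at 120 or more. These ranges held 1271, 1022, 460 and 112 knockout-only peaks. The weak end of the list thus held most of them, and 264 (9.21%) scored under 52.

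**Figure D1:**
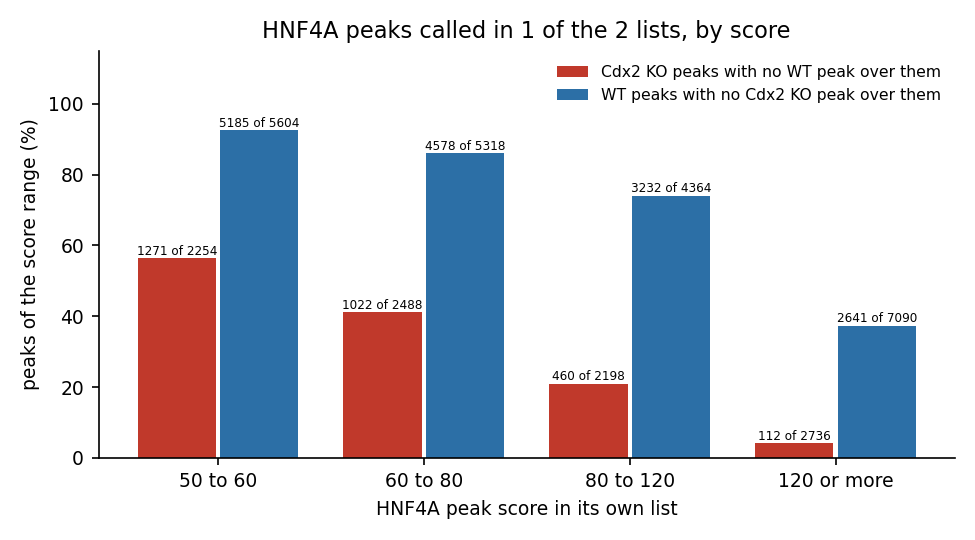
Share of HNF4A peaks called in only 1 of the 2 lists, by the peak's score in its own list (x axis, score ranges; y axis, percent of the peaks in that range). Red bars are Cdx2 knockout peaks with no wild-type peak over them and fall from 56.4% to 4.09% across the ranges; blue bars are wild-type peaks with no knockout peak over them and fall from 92.5% to 37.2%.

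The 10 strongest knockout-only peaks were not uniform in H3K4me2. The strongest, on chromosome 15 at 77212898 to 77213515 (build mm9 here and below), scored 250.0 and lay 4.37 kb from a wild-type HNF4A peak that scored 355.1. It held 2 nucleosomes in wild type, 2 in Cdx2 knockout, 3 in Hnf4a knockout and 1 in each double knockout. It showed no more H3K4me2 in the lists lacking Cdx2 than in wild type. The second strongest, on chromosome 15 at 78233698 to 78234101, scored 241.4 and lay 5.84 kb from a wild-type peak. It held 4 nucleosomes (wild type) and 5 (Hnf4a knockout), against 8 in Cdx2 knockout, 9 in the library titled Cdx2-Cdx1 and 7 in the one titled Cdx2-Hnf4a. The sixth, on chromosome 15 at 82237468 to 82237876 (score 193.1), held 1 nucleosome in both wild type and Hnf4a knockout, 4 in Cdx2 knockout and 5 in each double knockout. At both sites all 3 lists lacking Cdx2 were above wild type and Hnf4a knockout. Within 500 bp, however, Cdx2 knockout exceeded wild type by only 1 nucleosome at each. Within 2 kb it did so by 13 at the second strongest and by 3 at the sixth.

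The eighth strongest, on chromosome 5 at 87164919 to 87165122 (score 192.8), lay 171 kb from the nearest wild-type HNF4A peak. It held no nucleosome in wild type or Hnf4a knockout, 1 in Cdx2 knockout and 2 in each double knockout. The seventh, on chromosome 5 at 101003925 to 101004245 (score 192.8), held none in any list. Of the remaining 5, 2 held 1 nucleosome more in Cdx2 knockout than in wild type, those spanning 19852873 to 19853125 of chromosome 4 and 60348565 to 60349053 of chromosome 2. At the first of these the difference was -1 within 500 bp, so its direction depended on the window. The other 3 held equal numbers in both lists. They spanned 81413035 to 81413354 of chromosome 12 (1 nucleosome each), 8513134 to 8513637 of chromosome 16 (5 each) and 100635995 to 100636298 of chromosome 14 (1 each). None of these 10 sites overlapped a wild-type CDX2 peak, and the nearest CDX2 peak was 6.10 to 116 kb away.

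Most knockout-only peaks were not beside a wild-type HNF4A peak. The median gap to the nearest wild-type peak was 12.7 kb. For comparison, shared peaks lay a median of 5.10 kb from the nearest other wild-type peak. Of the knockout-only peaks, 395 (13.8%) had a wild-type peak within 1 kb, 1285 (44.9%) within 10 kb, and 304 (10.6%) had none within 100 kb. At the edge of the rule, the smallest gap was 3 bp, from peaks spanning 34634496 to 34634712 of chromosome 17 and 174299099 to 174299302 of chromosome 2, followed by 4 bp for 94854446 to 94854623 of chromosome 16. On the other side, the shared peak at 88868737 to 88868971 of chromosome 11 overlapped a wild-type peak by 2 bp. The next smallest overlaps were 4 bp for 128094346 to 128094662 of chromosome 8 and 5 bp for 115892279 to 115892437 of chromosome 13. The scores were 62.3, 53.3 and 61.3 for the knockout-only peaks and 51.6, 88.2 and 50.9 for the shared peaks, so a few bases at the peak edge decided the class of these 6 sites.

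Distance to a wild-type peak went with the amount of H3K4me2 in wild type. Knockout-only peaks within 100 bp of a wild-type peak (n = 82) held a mean of 4.94 wild-type nucleosomes, and 93.9% were marked. The mean was 2.93 at 1 to 5 kb (n = 538) and 1.53 beyond 100 kb (n = 304), where 42.4% were marked. Windows of 1 kb around peaks this close to a wild-type peak cover that peak too. In Cdx2 knockout the mean number was 0.990 times the wild-type number within 100 bp (0.860 to 1.14), 0.978 times at 100 to 500 bp (0.887 to 1.08) and 1.01 times at 500 bp to 1 kb (0.903 to 1.13). Beyond 1 kb, the ratio was 1.11 at 1 to 5 kb (1.03 to 1.19), 1.11 at 5 to 10 kb (1.02 to 1.22), 1.13 at 10 to 50 kb (1.07 to 1.20), 1.12 at 50 to 100 kb (1.01 to 1.24) and 1.12 beyond 100 kb (0.985 to 1.27). The intervals within 1 kb overlap those beyond it, and the difference between near and far sites was not tested. The corresponding Hnf4a knockout ratios beyond 1 kb ran from 0.960 to 1.05. All of these ratios are unscaled, without adjustment for the length of the lists. The Cdx2 knockout list was 1.05 times as long as the wild-type list. The lower limits of 1.03, 1.02 and 1.01 lie below that value.

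**Figure D2:**
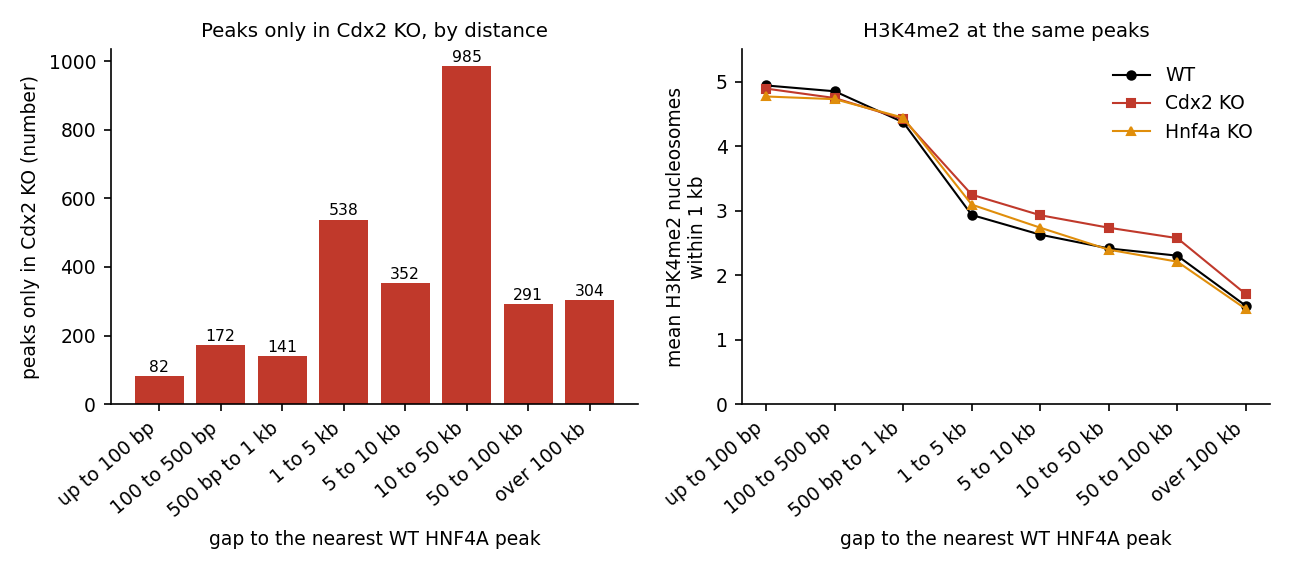
Left, number of knockout-only HNF4A peaks (y axis) by gap to the nearest wild-type HNF4A peak (x axis), with 395 of 2865 within 1 kb. Right, mean number of H3K4me2 nucleosomes within 1 kb of the same peaks in 3 lists, unscaled: the Cdx2 knockout points lie above wild type in every distance range beyond 1 kb, and the means fall from 4.94 to 1.53 in wild type.

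CDX2 peaks were less frequent at knockout-only than at shared HNF4A peaks. A CDX2 peak of either wild-type library overlapped 147 of 2865 knockout-only peaks (5.13%, Clopper-Pearson interval 4.35% to 6.0%). At shared peaks the count was 1291 of 6811 (19.0%, 18.0% to 19.9%), and at wild-type-only peaks it was 2388 of 15636 (15.3%, 14.7% to 15.8%). Knockout-only minus shared was -13.8 percentage points (Newcombe interval -15.0 to -12.6). In percentage points, the size of this difference rested on wild-type CDX2 library 1, where 4.78% of knockout-only and 17.9% of shared peaks were overlapped. Library 1 held more peaks than library 2 (12121 against 7441), and they were wider (median 570 against 255 bp). With library 2 alone, the shares were 0.663% and 4.23%, a difference of -3.57 points (-4.12 to -2.98). In the Hnf4a knockout, 0.838% of knockout-only and 2.73% of shared peaks overlapped a CDX2 peak. All 3 lists thus gave the same direction at different levels.

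The lower CDX2 share was seen in all 4 ranges of HNF4A score. From 50 to 60, where knockout-only peaks were most frequent, 5.19% of knockout-only and 17.5% of shared peaks overlapped a CDX2 peak of either library. At 120 or more, 6 of 112 knockout-only peaks (5.36%) and 571 of 2624 shared peaks (21.8%) did, a difference of -16.4 points (-19.7 to -10.4). It was also seen among sites with the same H3K4me2 in wild type. Among sites with 5 or more wild-type nucleosomes, the shares were 10.1% and 23.0%, and among unmarked sites 0.910% and 5.57%. The share fell with distance to a wild-type HNF4A peak, from 19.5% of knockout-only peaks within 100 bp of one to 2.96% beyond 100 kb. Within 100 bp (n = 82, interval 11.6% to 29.7%) it was near the 19.0% of all shared peaks. By the rule no wild-type HNF4A peak overlaps knockout-only peaks, so their lower share cannot be told apart from that distance. The median gap to the nearest wild-type CDX2 peak was 24.0 kb for knockout-only and 10.5 kb for shared peaks.

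The 5 strongest knockout-only peaks over a wild-type CDX2 peak were overlapped by CDX2 peaks of library 1 that scored 59.4 to 100.9, where the median of that list was 70.4. The HNF4A score was 168.0 for the peak spanning 11340647 to 11340859 of chromosome 16, 157.2 for 88968488 to 88968872 of chromosome 11, 140.4 for 5572198 to 5572357 of chromosome 17, 138.0 for 64403297 to 64403581 of chromosome 8 and 126.1 for 136453371 to 136453643 of chromosome 1. The first held no H3K4me2 nucleosome in any list. The other 4 differed by at most 1 nucleosome between wild type and Cdx2 knockout.

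**Figure D3:**
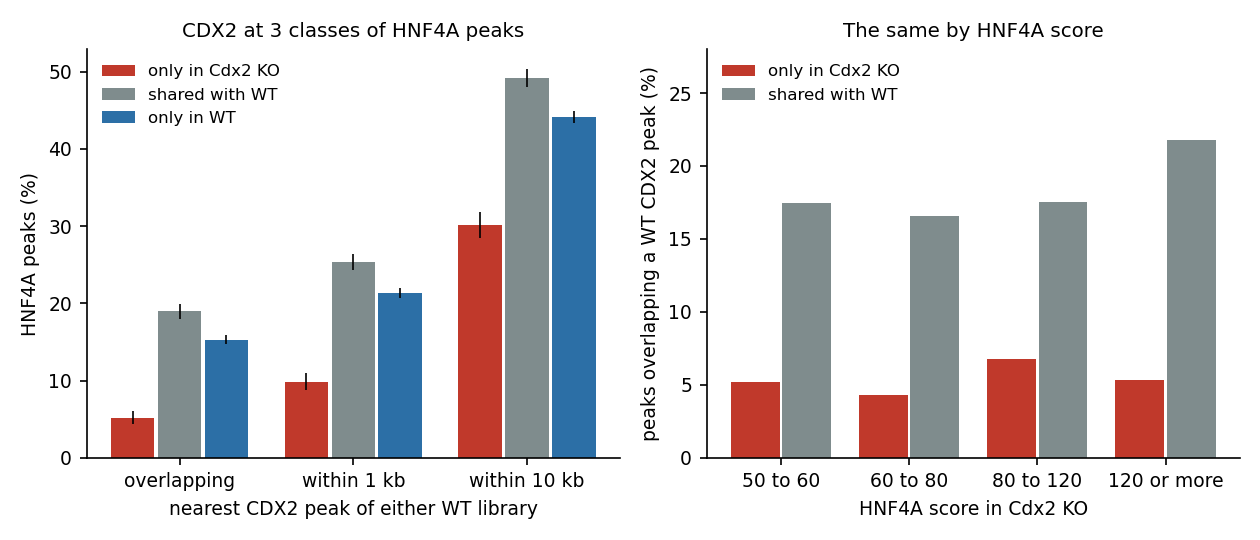
Left, percent of HNF4A peaks with a CDX2 peak of either wild-type library over them, within 1 kb or within 10 kb, for the 3 classes, with Clopper-Pearson 95% intervals. Right, the overlapping share by HNF4A score in Cdx2 knockout: knockout-only peaks lie between 4.31% and 6.74% and shared peaks between 16.6% and 21.8%.

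Most knockout-only peaks already lay in marked chromatin in wild type. In wild type 1986 of 2865 (69.3%) were marked, with a mean of 2.75 nucleosomes. The mean was 2.99 in Cdx2 knockout (74.7% marked), 2.76 in Hnf4a knockout (70.2%), 3.05 in the library titled Cdx2-Cdx1 (75.7%) and 2.91 in the one titled Cdx2-Hnf4a (72.8%). Shared peaks carried more H3K4me2, with a mean of 4.27 and 94.2% marked in wild type, and 4.07 and 92.9% in Cdx2 knockout. Wild-type-only peaks started from nearly the same level as knockout-only peaks, 2.66 with 69.3% marked, and stood at 2.32 with 62.7% marked in Cdx2 knockout. The pair of classes that began alike in wild type thus lay on opposite sides of that level in Cdx2 knockout. In Hnf4a knockout they stayed close, at 2.76 and 2.72.

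Per list, the number of nucleosomes at knockout-only peaks was 1.09 times that in wild type in Cdx2 knockout (1.06 to 1.12), 1.00 in Hnf4a knockout (0.974 to 1.04), 1.11 in the library titled Cdx2-Cdx1 (1.08 to 1.15) and 1.06 in the one titled Cdx2-Hnf4a (1.03 to 1.09). The lists differ in length, and dividing by the length of each list gave 1.04 (1.01 to 1.07), 0.985 (0.955 to 1.02), 0.967 (0.938 to 0.997) and 0.944 (0.915 to 0.973). The direction in both double knockouts therefore turned with the scaling. In Cdx2 knockout the ratio was above 1 both ways, but scaling by the length of sequence covered gave 1.02, with an interval (0.989 to 1.05) that reached below 1. A comparison between classes within the same pair of lists does not depend on this scaling. Relative to the ratio at shared peaks, the ratio at knockout-only peaks was 1.14 times as high in Cdx2 knockout (1.10 to 1.18), 1.14 in the library titled Cdx2-Cdx1 (1.10 to 1.18) and 1.25 in the one titled Cdx2-Hnf4a (1.20 to 1.29). In Hnf4a knockout it was 0.984 (0.950 to 1.02) at a score of 52 or more and 1.08 (1.05 to 1.12) with the lists as deposited, so its direction turned with the score minimum. Relative to wild-type-only peaks the values were 1.25, 1.23, 1.39 and, in Hnf4a knockout, 0.983. These 4 comparisons share the wild-type library.

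Knockout-only and shared peaks differed in their wild-type counts (means of 2.75 and 4.27). With shared peaks weighted to the wild-type counts of knockout-only peaks, the relative ratio was 1.08 in Cdx2 knockout, 1.04 in the library titled Cdx2-Cdx1, 1.19 in the one titled Cdx2-Hnf4a and 0.921 in Hnf4a knockout. In the lists lacking Cdx2 it remained above 1 at smaller values, and in Hnf4a knockout it lay further below 1. This weighting was chosen after seeing the data.

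The strongest knockout-only peaks had the highest ratio. For the 112 with a score of 120 or more, the mean number of nucleosomes was 2.54 in wild type, 3.33 in Cdx2 knockout, 2.71 in Hnf4a knockout, 3.34 in the library titled Cdx2-Cdx1 and 3.29 in the one titled Cdx2-Hnf4a. The unscaled ratio to wild type was 1.31 (1.12 to 1.54), 1.07 (0.904 to 1.26), 1.32 (1.13 to 1.54) and 1.30 (1.11 to 1.52) in that order. With division by list length these were 1.26 (1.07 to 1.47), 1.05 (0.887 to 1.23), 1.15 (0.980 to 1.34) and 1.16 (0.987 to 1.35), so these peaks stayed above 1 in the lists lacking Cdx2, though the intervals of both double knockouts reached below it. The marked share of these 112 was 80.4% in wild type and 92.9% in Cdx2 knockout. For the weaker score ranges the unscaled Cdx2 knockout ratio was 1.07, 1.08 and 1.10. Shared peaks at 120 or more had a ratio of 0.964 in Cdx2 knockout, and wild-type-only peaks with a wild-type score of 120 or more had 0.789.

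**Figure D4:**
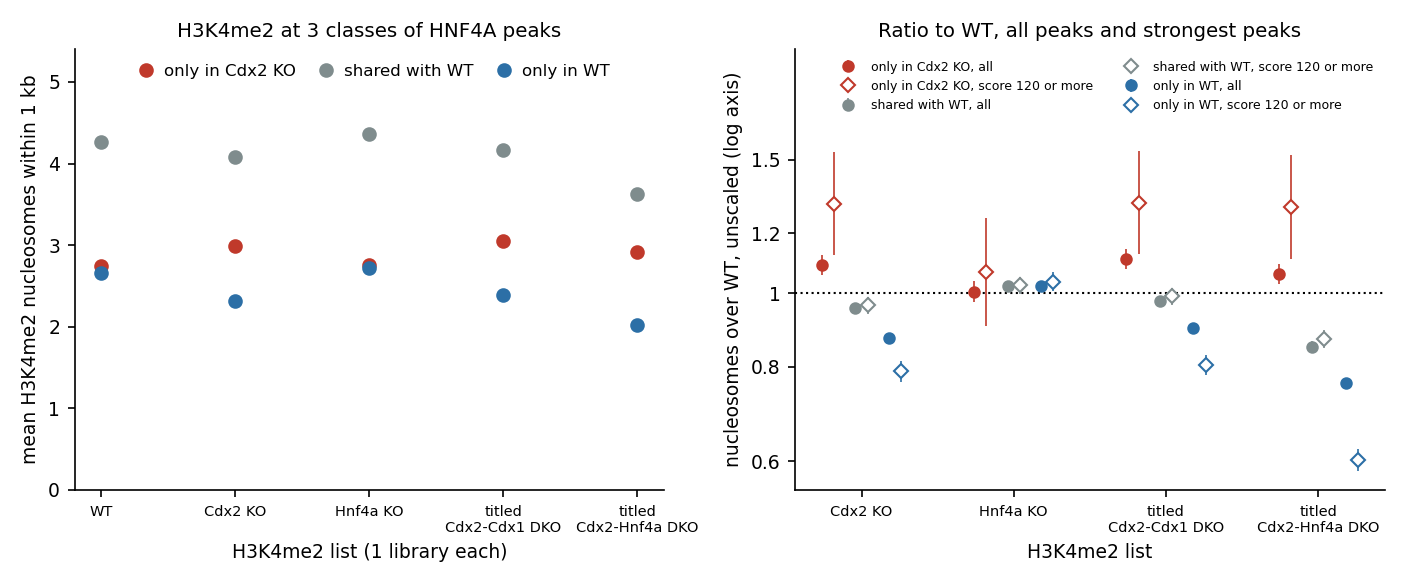
Left, mean number of H3K4me2 nucleosomes within 1 kb of 3 classes of HNF4A peaks in the 5 lists. Right, unscaled ratio of nucleosome numbers to wild type on a log axis, for all peaks (filled circles) and for peaks with a score of 120 or more in their own HNF4A list (open diamonds), with exact binomial 95% intervals: knockout-only peaks lie above 1 in the 3 lists lacking Cdx2 and near 1 in Hnf4a knockout (1.00 for all, 1.07 for the strongest).

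The higher H3K4me2 in Cdx2 knockout was seen at knockout-only peaks away from CDX2. The 2001 with no wild-type CDX2 peak within 10 kb held means of 2.47 (wild type) and 2.80 nucleosomes (Cdx2 knockout), an unscaled ratio of 1.13 (1.09 to 1.18). Their ratio was 1.01 in Hnf4a knockout, 1.15 in the library titled Cdx2-Cdx1 and 1.11 in the one titled Cdx2-Hnf4a. The 147 that overlapped a wild-type CDX2 peak held 4.50 against 4.39, a ratio of 0.976 (0.874 to 1.09). The 2 groups also differed in their wild-type level, whose part in this was not tested. Shared peaks with no CDX2 peak within 10 kb had a ratio of 0.979 in Cdx2 knockout (0.956 to 1.00).

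Sites that changed by 3 or more nucleosomes were few. A gain of 3 or more nucleosomes from wild type to Cdx2 knockout was seen at 101 knockout-only peaks (3.53%), where the share over all 25241 wild-type and knockout-only HNF4A peaks was 1.73%. A loss of 3 or more was seen at 39 (1.36%), against 4.52% over all HNF4A peaks. In these libraries gains were thus more frequent, and losses less frequent, at knockout-only peaks than over all HNF4A peaks. At shared peaks the shares were 1.79% for gains and 3.95% for losses. A loss of 3 needs at least 3 nucleosomes in wild type. Knockout-only peaks held fewer there (mean 2.75, against 3.10 over all HNF4A peaks), and the shares are not adjusted for this. From wild type to Hnf4a knockout, 45 knockout-only peaks gained 3 or more (1.57%, against 2.39% over all) and 43 lost 3 or more (1.50%, against 1.74%). Among the 112 strongest knockout-only peaks, 12 gained 3 or more in Cdx2 knockout (10.7%, 5.66% to 18.0%) and 0 lost 3 or more, which allows a share of up to 3.24%. Of the 101 that gained, 1 overlapped a wild-type CDX2 peak, beside 5.13% of all knockout-only peaks and 52 of the 436 HNF4A peaks of all kinds that gained.

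Marks that appeared or disappeared altogether gave the same order. Of the 879 knockout-only peaks unmarked in wild type, 209 (23.8%) were marked in Cdx2 knockout, against 12.5% of all HNF4A peaks unmarked in wild type. Of the 1986 marked in wild type, 56 (2.82%) were unmarked in Cdx2 knockout, against 8.96% of all HNF4A peaks marked in wild type. A mark in all 3 lists lacking Cdx2 and in neither wild type nor Hnf4a knockout was present at 72 knockout-only peaks. This was 2.51% of all of them, marked or not in wild type, against 0.761% of all HNF4A peaks. Counted among peaks unmarked in wild type, it was 72 of 879 knockout-only, 22 of 395 shared and 192 of 6069 HNF4A peaks of all kinds. Peaks marked in Hnf4a knockout could not show this pattern, which left out 13.1% of these knockout-only and 33.9% of these shared peaks. The counts are not adjusted for this, so whether the pattern was more frequent at knockout-only than at shared peaks was not tested. Of these 72, 0 overlapped a wild-type CDX2 peak, where 8 of all 879 knockout-only peaks unmarked in wild type did (0.910%). The opposite pattern, with a mark in wild type and Hnf4a knockout only, was present at 12 (0.419% of all knockout-only peaks), against 2.91% of all HNF4A peaks. At wild-type-only peaks these patterns stood the other way, at 97 (0.620%) and 676 (4.32%).

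How often a mark appeared where wild type had none differed by list. The Cdx2 knockout share of 23.8% (21.0% to 26.7%) stood beside 13.1% of the same 879 peaks in Hnf4a knockout (10.9% to 15.5%), 28.9% in the library titled Cdx2-Cdx1 and 27.4% in the one titled Cdx2-Hnf4a. Of the 4797 wild-type-only peaks unmarked in wild type, 8.96% were marked in Cdx2 knockout and 13.6% in Hnf4a knockout. The Hnf4a knockout shares of both classes were close, and those in Cdx2 knockout lay on either side. Shared peaks were rarely unmarked in wild type, and the 395 that were gained a mark more often than knockout-only peaks did, at 29.9% in Cdx2 knockout and 33.9% in Hnf4a knockout.

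Among the 5 largest gains, 2 sites had no nucleosome in wild type or in Hnf4a knockout. On chromosome 3 at 14889202 to 14889356 (HNF4A score 65.8), there were 8 nucleosomes in Cdx2 knockout, 9 in the library titled Cdx2-Cdx1 and 7 in the one titled Cdx2-Hnf4a. On chromosome 1 at 90033901 to 90034190 (score 74.5) there were 6, 5 and 5, but at a nucleosome score of 100 or more the gain in Cdx2 knockout was only 2. Another, on chromosome 15 at 82523445 to 82523694 (score 113.3), held 4 in wild type and 2 in Hnf4a knockout, against 10 in Cdx2 knockout, 7 in the library titled Cdx2-Cdx1 and 9 in the one titled Cdx2-Hnf4a. At these 3 sites H3K4me2 was higher in each list lacking Cdx2 than in the other 2 lists. The remaining sites were high in Hnf4a knockout too. On chromosome 9 at 69882662 to 69882878 (score 50.4), wild type held 1 nucleosome, Hnf4a knockout 8 and each of the other 3 lists 9. On chromosome 10 at 61801087 to 61801278 (score 50.4), which overlapped a CDX2 peak of library 2, wild type held 1, Cdx2 knockout 8, Hnf4a knockout 5, and the libraries titled Cdx2-Cdx1 and Cdx2-Hnf4a 6 and 7. At these sites wild type stood apart from all 4 knockout lists.

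The largest losses were at weak peaks, and 3 of the 5 lay within 500 bp of a wild-type HNF4A peak. On chromosome 12 at 32147603 to 32147774 (score 50.2), a knockout-only peak 171 bp from a wild-type HNF4A peak that scored 242.9 overlapped a wild-type CDX2 peak that scored 108.9. It held 8 nucleosomes (wild type) and 9 (Hnf4a knockout), against 2 in Cdx2 knockout, 6 in the library titled Cdx2-Cdx1 and 0 in the one titled Cdx2-Hnf4a. On chromosome 8 at 85921137 to 85921367 (score 73.6), the numbers were 6 in wild type, 1 in Cdx2 knockout and 4 in Hnf4a knockout. The libraries titled Cdx2-Cdx1 and Cdx2-Hnf4a held 5 and 2 there. On chromosome 12 at 111680720 to 111680963 (score 53.2), the numbers were 5, 1, 6, 3 and 1 in the same order of lists. At the first and the last of these, wild type and Hnf4a knockout were both above the 3 lists lacking Cdx2. The other sites spanned 128227570 to 128227727 of chromosome 6 (score 57.0) and 121905833 to 121905998 of chromosome 14 (score 56.8). From wild type to Cdx2 knockout they fell by 4 nucleosomes each, from 4 to 0 and from 6 to 2. The chromosome 6 site held 3 in Hnf4a knockout, 4 in the library titled Cdx2-Cdx1 and 3 in the one titled Cdx2-Hnf4a. The chromosome 14 site held 4, 5 and 1 in that order. At a nucleosome score of 100 or more the difference between Cdx2 knockout and wild type at the chromosome 6 site was -1.

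H3K4me2 was not detected at a sizeable minority of knockout-only peaks. In all, 521 (18.2%) were unmarked in all 5 lists, against 17.0% over all HNF4A peaks, and 1760 (61.4%) were marked in all 5, against 59.3%. Both shares were near those of all HNF4A peaks. Peaks unmarked in every list were weaker, with a median HNF4A score of 58.9. By score, 22.7% of knockout-only peaks from 50 to 60 and 7.14% of those at 120 or more were unmarked throughout. Besides the sites on chromosome 5 at 101003925 and chromosome 16 at 11340647 given above, the strongest spanned 49367198 to 49367463 of chromosome 13 (score 140.2), 146521454 to 146521798 of chromosome 7 (139.1) and 128451847 to 128452175 of chromosome 4 (136.0). These 5 lay 3.29 to 49.3 kb from the nearest wild-type HNF4A peak.

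Knockout-only peaks had a shallower central gap in marked nucleosomes than shared peaks. The density of nucleosome centres within 100 bp of the peak centre, divided by that from 100 to 300 bp, was 0.858 in wild type at knockout-only peaks (0.796 to 0.924) and 0.447 at shared peaks (0.426 to 0.469). Wild-type-only peaks stood at 0.803. A value of 1 means equal mean density in both zones. A dip can remain at that value, because the outer zone includes a sparser stretch from 200 to 300 bp. At knockout-only peaks in Cdx2 knockout, the higher-coordinate side held 2.05 centres per bp per 1000 peaks from 0 to 50 bp. It held 2.54 from 150 to 200 bp and 1.54 from 250 to 300 bp. In Cdx2 knockout, where the knockout-only peaks were called, their value was 0.950 (0.885 to 1.02), so the gap was no deeper there than in wild type. It was 0.941 in Hnf4a knockout, 1.04 in the library titled Cdx2-Cdx1 and 1.03 in the one titled Cdx2-Hnf4a. Shared peaks also had higher values in the knockouts, at 0.600 in Cdx2 knockout, 0.534 in Hnf4a knockout, 0.740 in the library titled Cdx2-Cdx1 and 0.836 in the one titled Cdx2-Hnf4a. The difference between the classes was present within ranges of HNF4A score. From 80 to 120, the Cdx2 knockout values were 0.789 at knockout-only and 0.552 at shared peaks. At 120 or more they were 1.09 (0.798 to 1.47) and 0.564 (0.526 to 0.605). In both double knockouts the classes lay closer at 120 or more, with overlapping intervals. The library titled Cdx2-Cdx1 gave 0.75 (0.527 to 1.05) and 0.689 (0.644 to 0.736). That last range has no upper limit, and scores in it reached 250.0 at knockout-only and 2367.4 at shared peaks. The middle of a peak stood for its summit here, which the lists do not give.

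**Figure D5:**
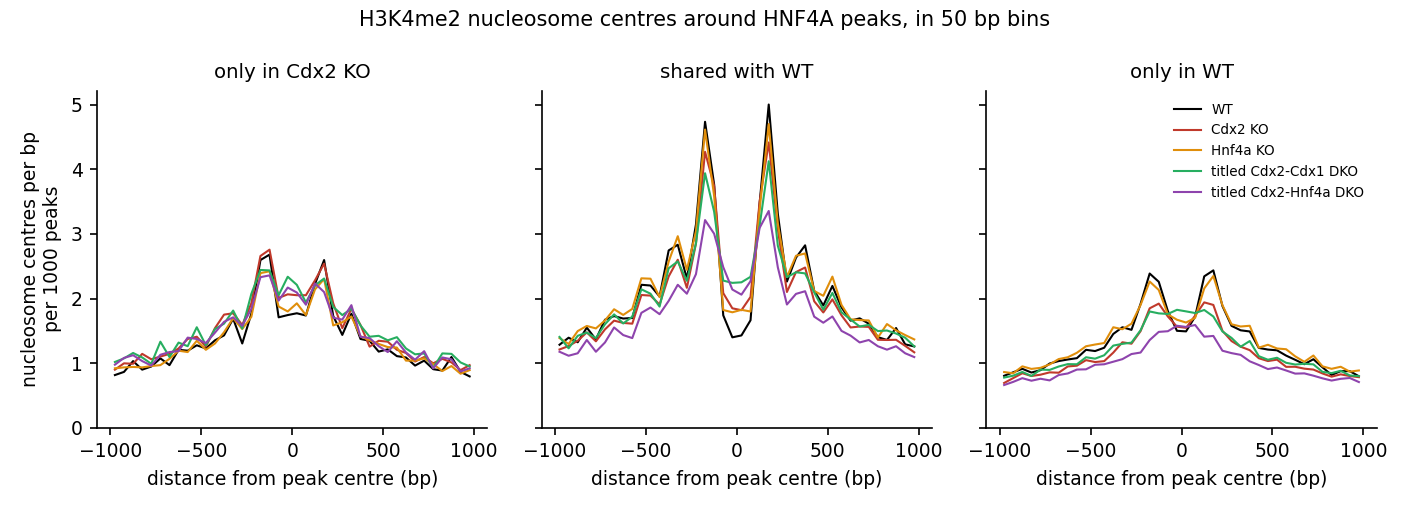
Nucleosome centres per bp per 1000 peaks (y axis) by distance from the HNF4A peak centre in 50 bp bins (x axis), for the 3 classes of peaks and the 5 H3K4me2 lists. Shared peaks show 2 flanking maxima around a central gap (centre over flank 0.447 in wild type), which is shallow at knockout-only peaks (0.858 in wild type, 0.950 in Cdx2 knockout).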

How the data were processed

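Factor peak lists were used as deposited by the authors, with a position and a score per peak. Each peak is named after the peak caller MACS. The caller's version, settings and control, the aligner and the meaning of the score are not stated in the labels or files used here. H3K4me2 lists gave nucleosome positions and, per the file headers, a score of 10 times the −log10 of a p-value. The submitters' processing notes name build mm9, and peak positions, read as BED intervals, are printed counting from 1. Whether nucleosome starts count from 0 or 1 is not stated in the files. Epithelium came from EDTA-released villi, per the labels' protocols. The input sample was not analysed here. Groups followed the titles.

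Overlap was 1 bp or more. Shares have Clopper-Pearson and differences Newcombe intervals, and ratios exact binomial intervals. Ratios between classes have log-scale intervals. Sites named were the 10 highest scores, the 5 largest gains and losses, the 5 strongest unmarked, the 5 strongest with CDX2, and the 3 nearest to the rule's edge on each side. Members, lists and thresholds were chosen with earlier results of these data known. Scripts (Python 3.11.15, numpy 2.4.6, pandas 2.3.3, scipy 1.17.1) were tested on simulated data. Gene names and sequences were not used here, because the reference tables are of another build, and the tissue label was not checked against markers. Alternatives covered score minimums, windows, scaling, overlap and CDX2 library.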

Additional observations from a re-analysis of the deposited data

How the results depend on the processing

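At a score of 100 or more, knockout-only peaks were 7.07% of the Cdx2 knockout list. Their share within 1 kb of a wild-type peak was then 11.0%, and 10.9% from centre to centre. The CDX2 difference was -15.5 points within 1 kb, -2.90 for peaks of both wild-type libraries, -16.8 at a score of 100 or more and -9.43 with shared peaks weighted by wild-type nucleosomes. Leaving out a CDX2 library gave -13.2 to -3.57.

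The mean wild-type nucleosome number was 2.21 at a nucleosome score of 100 or more, 1.73 within 500 bp, 4.10 within 2 kb, 2.54 without peaks within 500 bp of a wild-type peak, 2.82 at a peak score of 100 or more and 2.65 for windows overlapping no other. Gains and losses were 1.57% and 0.209% within 500 bp, 8.34% and 2.79% within 2 kb, 7.45% and 0.784% at a peak score of 100 or more, 11.5% and 5.41% for a difference of 2 or more, and 1.26% and 0.209% for 4 or more. Gains exceeded losses in each.

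The ratio of Cdx2 knockout to wild type was 1.12 at a peak score of 100 or more and 1.09 unscaled, and 1.02 scaled by covered length. That of the library titled Cdx2-Cdx1 turned to 1.05 and 1.11, and that of the library titled Cdx2-Hnf4a to 1.04 and 1.06. Relative to shared peaks, the values at a peak score of 100 or more were 1.22, 1.22 and 1.35 in Cdx2 knockout and the libraries titled Cdx2-Cdx1 and Cdx2-Hnf4a. With shared peaks weighted by wild-type count they were 1.08, 1.04 and 1.19, and 0.921 in Hnf4a knockout, where the deposited lists gave 1.08. The site on chromosome 4 at 19852873 turned to -1 within 500 bp. In all, 173 recomputed values stayed close to the value reported, 55 moved further with the same direction or none called, and 5 reversed. Here a ratio or difference counted as reversed only where the interval of the reported value left out no change. The turn in Hnf4a knockout relative to shared peaks is therefore among the 55. At named sites, a change of sign counted as reversed and a shift of under 3 nucleosomes as close. Weighting, and the use of summed nucleosome scores in place of numbers, were chosen after seeing the data. With summed scores the relative value in Cdx2 knockout was 1.13. The cause of these shifts was not tested. Depth is unknown, so a peak called in 1 list may be missing from the other for depth alone, and 1 library per group leaves the spread between animals unknown.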

Other observations

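Most knockout-only peaks (1877 of 2865, 65.5%) had no other within 50 kb, and the median gap to the nearest other was 105 kb. Between shared peaks, which were more numerous, the median gap was 19.3 kb. Whether this spacing differs from that of randomly placed sites was not tested. There were 28 runs of 4 or more with gaps under 50 kb. The stretches below were chosen after their values were seen.

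On chromosome 15 from 82237468 to 82523694 (286 kb), which starts and ends with sites named above for their score and their gain and is not one of these runs, the list held 4 knockout-only and 2 shared peaks. H3K4me2 nucleosomes in the whole stretch numbered 5 in wild type and 9 in Hnf4a knockout, against 33 in Cdx2 knockout, 47 in the library titled Cdx2-Cdx1 and 20 in the one titled Cdx2-Hnf4a. The 4 knockout-only peaks scored 193.1, 106.8, 61.0 and 113.3 and together held 6, 22, 6, 22 and 17 nucleosomes within 1 kb in wild type, Cdx2 knockout, Hnf4a knockout and the libraries titled Cdx2-Cdx1 and Cdx2-Hnf4a. At each of the 4, Cdx2 knockout was above wild type.

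On chromosome 4 from 144537675 to 144624765 (87.1 kb), 6 knockout-only peaks scoring 51.7 to 164.9 lay among 5 wild-type HNF4A peaks, none of them shared. The nucleosomes within 1 kb of the 6 numbered 4 in wild type, 16 in Cdx2 knockout, 6 in Hnf4a knockout, 14 in the library titled Cdx2-Cdx1 and 11 in the one titled Cdx2-Hnf4a. One of them, at 144547176 to 144547432 (score 73.4), held 0, 6, 1, 7 and 4.

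On chromosome 8 from 87964758 to 88079323, 6 knockout-only peaks held 13 nucleosomes in each of wild type and Hnf4a knockout. They held 19 in Cdx2 knockout, 20 in the library titled Cdx2-Cdx1 and 21 in the one titled Cdx2-Hnf4a. Differences were smaller at runs of 6 on chromosomes 2 and 14. The first, from 154875967 to 154968080, held 15 in wild type, 17 in Cdx2 knockout, 15 in Hnf4a knockout and 16 in each double knockout. The second, from 27320090 to 27481836, held 13 in wild type, 15 in Cdx2 knockout and 16 in Hnf4a knockout. It held 17 in the library titled Cdx2-Cdx1 and 16 in the one titled Cdx2-Hnf4a.

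The run with the most members had 8 knockout-only peaks, on chromosome 11 from 58145249 to 58212331. Their windows held 25 nucleosomes in wild type, 28 in Cdx2 knockout, 25 in Hnf4a knockout, 25 in the library titled Cdx2-Cdx1 and 28 in the one titled Cdx2-Hnf4a. Over the whole stretch the numbers were 45, 53, 45, 65 and 59. On chromosome 11 from 100000660 to 100006843, 6 knockout-only peaks fell within 6.18 kb that held no wild-type HNF4A peak. Their windows held 36 nucleosomes in wild type and 33 in Cdx2 knockout. These windows overlap each other and count some nucleosomes more than once. The stretch itself held 22 in both lists. That stretch was marked in wild type without an HNF4A peak being called there.

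By chromosome, 35 knockout-only peaks (1.22%) were on X, against 48 shared peaks (0.705%), a difference of 0.517 points (0.106 to 1.02). The interval of the difference left out 0 for 3 of 20 chromosomes (6, 19 and X), with no adjustment for their number.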
